A study of Mus musculus with 10 samples.

Results

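The data described here are the kidney transcript levels of 8 genes that stand close to the action of rilmenidine, a blood pressure-lowering drug that binds imidazoline receptors and alpha-2 adrenoceptors. Nisch and Adra2b encode candidate receptors of the drug, and Ren1, Agt, Ace, Agtr1a, Agtrap and Atp6ap2 encode members of the renin-angiotensin system or proteins that bind its receptors. The 8 genes were taken by symbol from a table of 43629 genes, and all 8 were among the 10055 genes that had 6 or more reads in 7 or more of the 10 libraries and were tested. They were chosen for their roles, with earlier results of these data known. The study gave UM-HET3 mice, a stock bred from several inbred grandparent strains, rilmenidine to examine what the drug does to gene expression. All animals were male and had 4 months of age at collection. The 6 control mice ate the Purina 5LG6 diet alone, and the 4 treated mice, whose littermates served as controls, ate it with rilmenidine at 10 ppm for 1 month from the age of 3 months. Further control kidneys mentioned in the study's methods were not analysed here. Each library holds polyadenylated RNA of the kidney of 1 mouse, with no transgene and no sorting of cells, so that fewer cells of a type and less RNA per cell cannot be told apart.

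In the renin-angiotensin system, renin from juxtaglomerular cells of the kidney cuts angiotensinogen to angiotensin I, which angiotensin-converting enzyme turns into angiotensin II, and this peptide raises blood pressure and sodium retention through the AT1 receptor. Sympathetic nerves stimulate renin release, and central imidazoline and alpha-2 agonists lower sympathetic outflow. Nischarin, an integrin-binding scaffold protein, has been proposed as the I1-imidazoline receptor, and alpha-2B adrenoceptors are Gi-coupled receptors of the renal tubule.

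Because renin and angiotensinogen are textbook cases of regulated genes, the stretch of promoter that can hold a TATA box is shown for 6 of the 8 genes from the RefSeq promoter table of GRCm38.p6. Agtr1a was not among the entries. Each line gives the 30 bases from 40 to 11 bases before the annotated start on the strand of the gene, in lower case. Capitals mark TATAAA, or TTTATA where the same letters stand on the other strand.
Ren1 (chr1:133350634-133350663, plus strand): tacatggtgtgTATAAAagaaggctcaggg
Agt (chr8:124569717-124569746, minus strand): accccttgagTATAAAtaagcctgcttggc
Ace, somatic start (chr11:105967908-105967937, plus strand): tggctgggtTTTATAatccgcagggcggtc
Ace, inner start (chr11:105975149-105975178, plus strand): gcaggcttggctcttattggccggtgatgg
Nisch (chr14:31206837-31206866, minus strand): ccgcaggagctgcgcatgcgtgccactggt
Agtrap (chr4:148088075-148088104, minus strand): cgccgtctcctagcaaccggctgcagtcac
Atp6ap2 (chrX:12587719-12587748, plus strand): cgctcgtgtagcggcgtagttggcgattgg

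Ren1 and Agt held TATAAA on their own strand, beginning 29 and 30 bases before the start, and the somatic start of Ace held it on the other strand, 31 bases before. The other starts shown held these letters on neither strand. In the 60 bases before the start, 3.92% of 32851 RefSeq promoters held the motif on either strand and 2.87% held it on the strand of the gene. The promoters of Ren1 and Agt also had the lowest GC content of the 6 genes, 51.6% and 55.6% over 250 bases, while the somatic start of Ace had 67.2% and the median over all promoters was 52.4%. For Nisch and Ren1 the stretch shown lies inside the span that GENCODE gives for the gene, since GENCODE places the outermost start farther upstream than RefSeq does. A match of letters is a description of the sequence and not a measured binding site.

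The libraries held 863605 to 3232063 counts, and 14491 to 22848 genes had at least 1 count. Olfactory and vomeronasal receptor genes, which the kidney hardly uses, took 45.7 to 387 CPM (counts brought to the same library total) in 7 libraries and under 10 in control 6, rilmenidine 3 and rilmenidine 4, which were also the 3 deepest libraries. The nuclear RNA Malat1 stood at 1200 to 2210 CPM in controls 1, 3, 4 and 5 and at 284 to 390 CPM in the 6 other libraries, all 4 treated ones included. The labels describe the extraction of RNA from liver, but the tissue is given as kidney, and 5 proximal tubule markers summed to 6798 to 8723 normalized CPM where 3 liver markers summed to 1.12 to 18. Adrenal markers reached 8.15 normalized CPM at most, with Cyp11b2 at 0 counts in every library.

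None of the 8 genes passed the test for a difference between treated and control kidneys. By the quasi-likelihood test of edgeR, adjusted after Benjamini and Hochberg over all 10055 genes, their adjusted p-values ran from 0.378 to 0.976, and 0 of the 8 genes were called, as were 0% of all genes tested. At an unadjusted p-value under 0.05 there was 1 of the 8 genes, Agtrap, and the background for such a result was 10.6% of all genes tested, 4.43% of them higher and 6.13% lower with rilmenidine. The ranges of treated and control kidneys overlapped for all 8 genes, while they did not overlap for 1.67% of the genes tested. The fitted log2 fold change was above 0 for 3 genes and below 0 for 5, with a median of -0.08, where the median of all genes tested was 0.00.

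**Figure D1:**
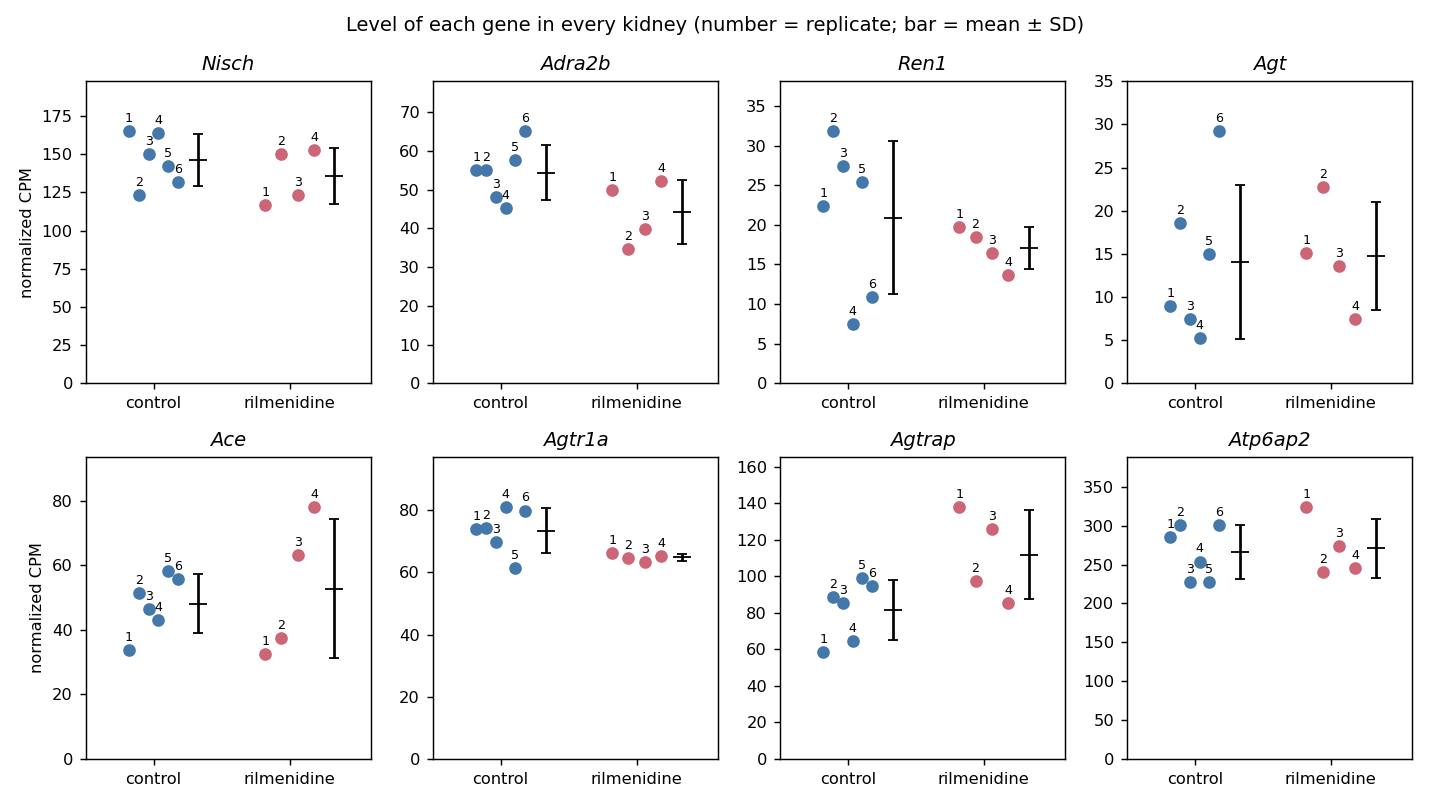
Normalized CPM (vertical axis, from 0) of the 8 genes in 6 control (blue) and 4 rilmenidine (red) kidneys, with each point numbered by replicate and bars giving the mean ± SD. Treated and control kidneys overlap for every gene, and the controls scatter most widely about their mean for Agt and Ren1.

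Nisch (ENSMUSG00000021910), the gene of nischarin, lies on the minus strand at chr14:31170930-31216946 of GRCm38. Its level was 165, 123, 150, 164, 142 and 132 normalized CPM in controls 1 to 6 and 117, 150, 123 and 153 in rilmenidine kidneys 1 to 4. Of the treated kidneys, 1 lay below the lowest control and the others lay among the controls. The means were 146 ± 16.9 (SD, n = 6) and 136 ± 18.5 (SD, n = 4), and the log2 fold change was -0.10 with a standard error of 0.13 (edgeR quasi-likelihood test, adjusted p = 0.844). The 95% interval of the fold ran from 0.77 to 1.13. Tnnc1, on the opposite strand within the span of Nisch, had 0 to 19 counts where Nisch had 147 to 491, and the strand setting of the counting was not given.

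Adra2b (ENSMUSG00000058620, chr2:127363208-127367221, plus strand) was the only alpha-2 adrenoceptor gene with enough counts to be tested. Its levels in controls 1 to 6 were 55, 55.1, 48.1, 45.3, 57.8 and 65.1 normalized CPM, and those in rilmenidine kidneys 1 to 4 were 49.9, 34.8, 39.9 and 52.2. Rilmenidine 2 and 3 lay below every control, and 4 of the 6 controls lay above every treated kidney. The mean was 54.4 ± 7.06 (SD, n = 6) in controls and 44.2 ± 8.23 (SD, n = 4) in treated kidneys. The log2 fold change of -0.31 (standard error 0.16, 95% interval -0.64 to 0.03) had an unadjusted p of 0.0686 and an adjusted p of 0.512 in edgeR's quasi-likelihood test. A two-sided exact permutation test over the 210 divisions of the kidneys gave p = 0.0667. A fit that included log2 library size gave a log2 fold change of -0.45 (edgeR, unadjusted p = 0.0317, adjusted p = 0.975), and one that included log2 Malat1 gave -0.40 (edgeR, unadjusted p = 0.0471, adjusted p = 1). The value was -0.21 without rilmenidine 2 (edgeR, unadjusted p = 0.216), -0.24 without control 6 (edgeR, unadjusted p = 0.154) and -0.31 without the 3 libraries under 10 CPM on receptor genes (edgeR, unadjusted p = 0.176).

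The other alpha-2 adrenoceptor genes were at or near the floor of detection. Adra2a had 0 to 6 counts in a library and 18 in all. Adra2c had 0 counts in all 10 libraries, which allows a level of up to 0.928 CPM in the deepest library and 3.47 CPM in the shallowest, with 3 counts as the limit for counting error alone. Of the 8 adrenoceptor genes examined beside Adra2b, these 2 included, 2 were tested and 0 had an unadjusted p under 0.05 in edgeR. At that threshold stood 10.6% of all genes tested. Adra1a, an alpha-1 receptor of smooth muscle, had a log2 fold change of 0.21, with 0.38 as its standard error. Among 15 genes of Gi coupling and receptor desensitization, 11 were tested and 0 had an unadjusted p under 0.05, against 10.6% of all genes. Gnai1, Gnai2 and Gnai3, which encode the Gi alpha subunits, had log2 fold changes of -0.12, 0.04 and 0.10. The smallest p-values above and below 0 in this list belonged to Prkaca, the catalytic subunit of protein kinase A, with 0.20, and Grk2, a receptor kinase, with -0.18.

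Ren1 (ENSMUSG00000070645, chr1:133350510-133360325, plus strand) encodes renin and was one of the genes with the strongest scatter among controls. Its levels in controls 1 to 6 were 22.4, 31.8, 27.4, 7.43, 25.4 and 10.9 normalized CPM, and those in rilmenidine kidneys 1 to 4 were 19.7, 18.5, 16.4 and 13.7. All 4 treated kidneys fell into the gap between 4 controls above them and 2 below them. The means were 20.9 ± 9.64 (SD, n = 6) and 17.1 ± 2.61 (SD, n = 4), with a fitted log2 difference of -0.29 (standard error 0.32, 95% interval -0.96 to 0.39, edgeR adjusted p = 0.803). The fold could thus lie anywhere from 0.514 to 1.31 at this depth of 10 to 53 counts a library. The exact permutation test gave a difference in mean log2 CPM of -0.13 (p = 0.757, two-sided). In a fit that included log2 library size the log2 fold change was -0.013 (edgeR, unadjusted p = 0.975), and it was -0.11 without control 2. DBA/2J, a grandparent of UM-HET3 mice, carries a second renin gene close in sequence to Ren1, whose reads could not be told apart from those of Ren1 in these counts.

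Of 14 genes of renin cells and the macula densa, 5 were tested, and 1 of them had an unadjusted p under 0.05, below 0, as did 6.13% of all genes tested. Crebbp, which encodes a histone acetyltransferase used at the renin enhancer, had 52.8, 60.2 and 79.8 normalized CPM as the lowest, median and highest control and 47.6, 51.6, 41.6 and 49.3 in rilmenidine kidneys 1 to 4. All treated kidneys lay below all controls, where 1.67% of the genes tested showed no overlap in either direction. Crebbp had -0.41 as its log2 fold change (standard error 0.15, edgeR unadjusted p = 0.0149, adjusted p = 0.339). With log2 Malat1 in the fit the value was -0.22 (edgeR, unadjusted p = 0.218), and the unadjusted p was 0.0815 with log2 library size in the fit, 0.0817 without the 3 libraries under 10 CPM on receptor genes and 0.0554 without rilmenidine 3 (edgeR). Rbpj, a Notch-pathway factor that acts in renin cells, had a log2 fold change of 0.13. Akr1b7, a marker of renin cells, had 0 to 9 counts in a library, and Gja5, their gap junction gene, had 0 to 2 and was not tested.

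Agt (ENSMUSG00000031980, chr8:124556534-124569706, minus strand) encodes angiotensinogen, which in the kidney is made by the proximal tubule. Its levels were 8.98, 18.6, 7.47, 5.2, 15 and 29.2 normalized CPM in controls 1 to 6 and 15.1, 22.8, 13.6 and 7.49 in rilmenidine kidneys 1 to 4, all within the control range. The means of 14.1 ± 8.94 (SD, n = 6) and 14.8 ± 6.3 (SD, n = 4) were slightly higher with the drug, whereas the fitted log2 fold change was -0.07 (standard error 0.39, edgeR adjusted p = 0.976). No direction was given by these data, since the value was 0.33 without control 6 and -0.35 without rilmenidine 2, and the 95% interval of the fold spanned 0.535 to 1.7. The gene had 7 to 75 counts a library.

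Ace (ENSMUSG00000020681, chr11:105967945-105989964, plus strand) encodes angiotensin-converting enzyme, a peptidase of the brush border and of endothelium. Controls 1 to 6 had 33.7, 51.5, 46.5, 43.1, 58.4 and 55.8 normalized CPM. Rilmenidine kidneys 1 to 4 had 32.5, 37.5, 63.3 and 78.1, with 1 below every control and 2 above every control. The treated kidneys thus spread on both sides of the controls, with a mean of 52.8 ± 21.6 (SD, n = 4) against 48.2 ± 9.09 (SD, n = 6) and a fitted log2 difference of 0.14 (standard error 0.22, 95% interval -0.33 to 0.61, edgeR adjusted p = 0.886). Without rilmenidine 4 the log2 fold change was -0.11, in a fit that included log2 library size it was -0.42 (edgeR, unadjusted p = 0.078), and without the 3 libraries under 10 CPM on receptor genes it was -0.43. The somatic and the inner start of Ace share the 3′ end of the gene, so reads from the 3′ end do not tell the forms apart. The antisense gene Gm11651 had 0 to 2 counts.

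The level of Ace moved with the depth of the library. Across the 10 kidneys, with the group means removed, log2 Ace and log2 library size had a Pearson r of 0.83 (permutation p = 0.00372, adjusted p = 0.134 over 36 relations) and a Spearman rho of 0.88 (permutation p = 0.00754, adjusted p = 0.171). The relation failed the adjustment. The r was 0.85 without rilmenidine 1 and 4, the 2 kidneys farthest from the median, 0.86 within the 6 controls, and 0.90 among the 7 libraries that had 10 CPM or more on receptor genes. Markers of the straight proximal tubule summed to 598, 665, 1223 and 1201 normalized CPM in rilmenidine kidneys 1 to 4, in which Ace was low, low, high and high. Among controls this did not hold for the extremes, as control 1 had 1011 with the lowest Ace and control 6 had 554 with the second highest. The part of depth or of tubule segments in the levels of Ace was not tested.

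Agtr1a (ENSMUSG00000049115, chr13:30336441-30382867, plus strand) encodes the main AT1 receptor of the mouse kidney. It stood at 74.1, 74.3, 69.7, 81, 61.3 and 79.9 normalized CPM in controls 1 to 6 and at 66.1, 64.6, 63.3 and 65.3 in rilmenidine kidneys 1 to 4. The treated kidneys lay closely together, with 5 of the 6 controls above them and control 5 below them. The means were 73.4 ± 7.22 (SD, n = 6) and 64.8 ± 1.18 (SD, n = 4). The log2 fold change was -0.18 (standard error 0.13, 95% interval -0.45 to 0.09), with an unadjusted p of 0.171 and an adjusted p of 0.641 in edgeR's quasi-likelihood test and p = 0.0571 in the exact permutation test. The coefficient of variation of 1.81% among treated kidneys was below the 8.3% that counting alone would give on average, so the closeness of these 4 values is tighter than the precision of the measurement. Agtr1b, the paralog, had at most 1 count in a library, and Agtr2, the AT2 receptor gene, had at most 6.

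Agtrap (ENSMUSG00000029007, chr4:148077061-148088031, minus strand) encodes the AT1 receptor-associated protein, which promotes internalization of the receptor. Controls 1 to 6 had 58.4, 88.7, 85.5, 64.6, 98.9 and 94.7 normalized CPM, and rilmenidine kidneys 1 to 4 had 138, 97.7, 126 and 85.6. Rilmenidine 1 and 3 lay above every control, and all 4 treated kidneys lay above the control mean. The mean was 112 ± 24.4 (SD, n = 4) with the drug and 81.8 ± 16.5 (SD, n = 6) without, a fold of 1.35 with a 95% interval of 1.05 to 1.74. The log2 fold change of 0.44 (standard error 0.17) had an unadjusted p of 0.022 and an adjusted p of 0.378 in edgeR's quasi-likelihood test, and the exact permutation test gave p = 0.0905. It was 0.32 without rilmenidine 1 (edgeR, unadjusted p = 0.0967), 0.37 without rilmenidine 3 (edgeR, unadjusted p = 0.0733) and 0.31 in a fit that included log2 library size (edgeR, unadjusted p = 0.162). With log2 Malat1 in the fit it was 0.30 (edgeR, unadjusted p = 0.192). Other runs gave larger values, 0.56 without the 3 libraries under 10 CPM on receptor genes (edgeR, unadjusted p = 0.0234, adjusted p = 0.392) and 0.55 without rilmenidine 4 (edgeR, unadjusted p = 0.00772, adjusted p = 0.391).

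Atp6ap2 (ENSMUSG00000031007, chrX:12587801-12617049, plus strand) encodes the (pro)renin receptor, which is also an accessory subunit of the vacuolar proton pump. It was the most abundant of the 8 genes, with 285, 301, 227, 254, 227 and 301 normalized CPM in controls 1 to 6 and 324, 240, 274 and 245 in rilmenidine kidneys 1 to 4. Rilmenidine 1 was above every control and the others lay among them. The means of 266 ± 34.6 (SD, n = 6) and 271 ± 38.3 (SD, n = 4) gave a fitted log2 difference of 0.02 (standard error 0.13, edgeR adjusted p = 0.974) and a fold between 0.837 and 1.24 at 95%. Nisch and Atp6ap2 thus had the narrowest limits, together with Agtr1a.

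**Figure D2:**
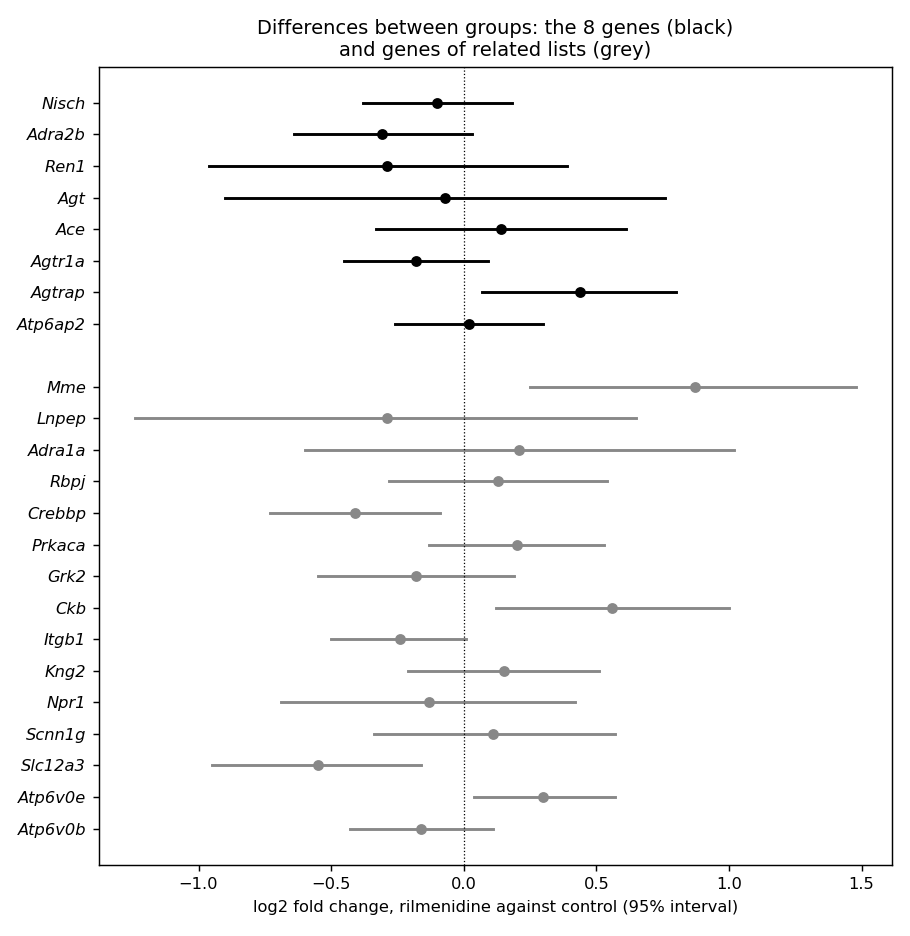
Log2 fold change of rilmenidine against control kidneys (horizontal axis) with its 95% interval from edgeR, for the 8 genes (black) and for 15 genes of related lists (grey), 1 gene a row. Of the 8 genes, Agtrap alone has an interval that does not cross 0, and Ren1 and Agt have the widest intervals.

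Among the controls the order of the levels per kilobase of exon was Atp6ap2 at 102 ± 13.2 CPM per kilobase (SD, n = 6), Agtr1a at 26.3 ± 2.59, Agtrap at 19.3 ± 3.9, Adra2b at 13.6 ± 1.76, Ren1 at 12.6 ± 5.82, Nisch at 11.1 ± 1.28, Ace at 9.11 ± 1.72 and Agt at 7.45 ± 4.73. Atp6ap2 lay above Agtr1a in every control, and each other neighbouring pair in this order overlapped. The libraries count 3′ ends, of which a transcript has 1 whatever its length, so the scale per kilobase lowers long genes such as Nisch, and the order in CPM begins with Atp6ap2 and Nisch.

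The genes differed in how much they varied among kidneys of the same group. The biological coefficient of variation is edgeR's estimate of the spread beyond counting error, drawn towards the trend over all genes. It was 0.400 for Agt and 0.308 for Ren1, above 96% and 87.1% of the genes tested. Ace had 0.239, Agtrap 0.194, Atp6ap2 0.165, Adra2b 0.160, Nisch 0.155 and Agtr1a 0.135, where the median of all genes tested was 0.199. For Ren1 the coefficient of variation was 46.1% among controls, where counting alone would give 18.4%, but 15.3% among treated kidneys, where counting alone would give 16.2%. For Agt it was 63.5% and 42.7%, against 22.5% and 17.4% from counting. For Agtr1a it was 9.85% and 1.81%, against 9.84% and 8.3% from counting, so its estimate of 0.135 exceeds the spread seen beyond counting. No test of the difference in spread was made. Ren1 and Agt, the most variable of the 8, were also those with TATAAA on their own strand among the 6 genes whose promoter is shown, and they had the lowest counts of the 8. Among all tested genes with a promoter entry, the 189 with the motif had a median biological coefficient of variation of 0.216 and the 7661 without had 0.197, at median levels of 4.70 and 4.77 log2 CPM. The part of the motif or of low counts in the variation was not tested.

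**Figure D3:**
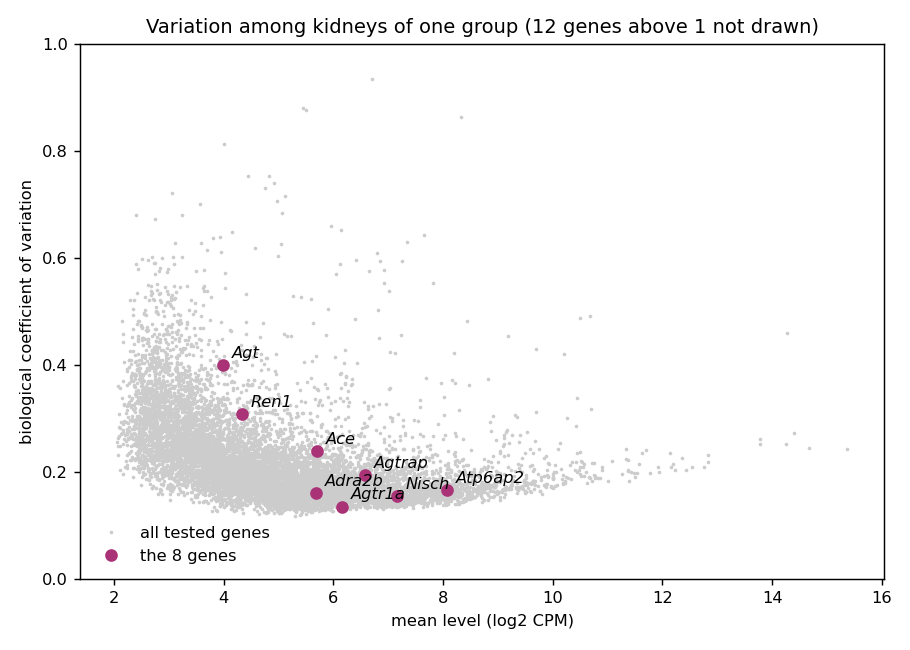
Biological coefficient of variation among kidneys of 1 group (vertical axis) against mean level in log2 CPM (horizontal axis) for all tested genes (grey) and the 8 genes (purple). Agt at 0.400 and Ren1 at 0.308 lie high for their level, and Agtr1a at 0.135 lies at the lower edge.

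Across kidneys the 8 genes did not move as a block. With group means removed, the Pearson r of the 28 pairs ran from -0.88 to 0.58, and 13 were above 0. Of the 36 relations computed, the pairs and each gene with library size, 0 had an adjusted permutation p under 0.05. By Pearson r 2 had an unadjusted one, both named here. By Spearman rho these had one too, as did Agtr1a with Atp6ap2 (rho = 0.72, permutation p = 0.0325, adjusted p = 0.39). The strongest pair was Nisch with Agtrap, with an r of -0.88 (permutation p = 0.00797, adjusted p = 0.143) and a rho of -0.83 (permutation p = 0.0095, adjusted p = 0.171), which failed the adjustment. Kidneys with low Agtrap, such as controls 1 and 4 at 58.4 and 64.6 normalized CPM, had high Nisch at 165 and 164, and rilmenidine 1 with the highest Agtrap had the lowest Nisch. The r was -0.92 without control 2 and rilmenidine 1, the 2 kidneys farthest from the median of Nisch, -0.81 within the controls, and -0.83 among the 7 libraries that had 10 CPM or more on receptor genes.

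**Figure D4:**
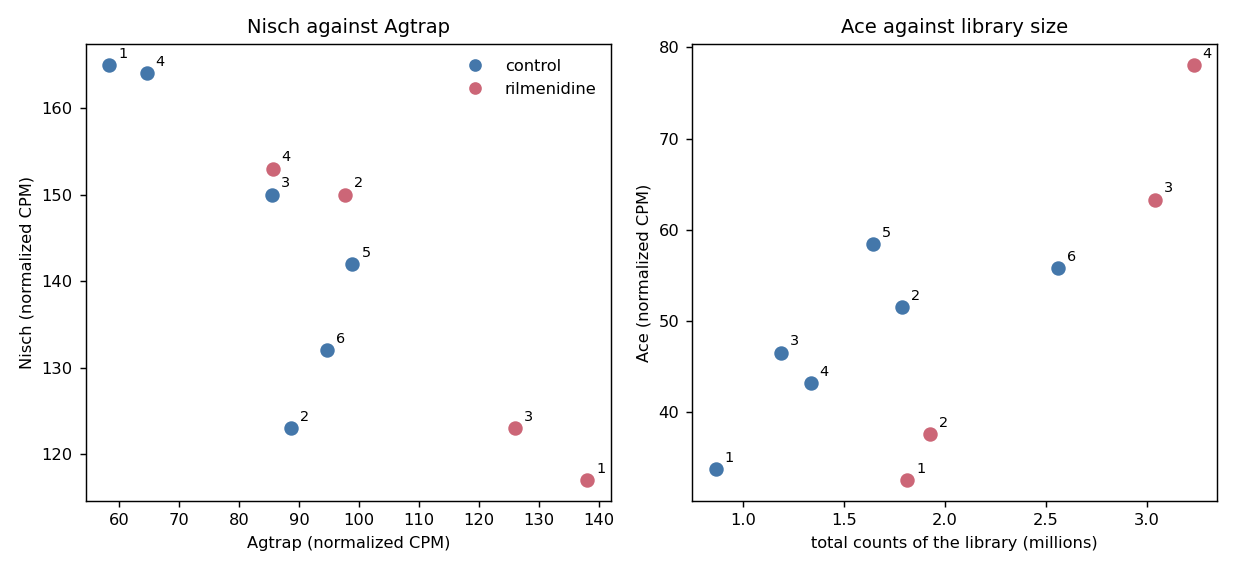
Normalized CPM of Nisch against that of Agtrap (left) and of Ace against the total counts of the library (right), each point 1 kidney numbered by replicate, controls in blue and rilmenidine in red. Nisch is lower where Agtrap is higher in both groups, and Ace is higher in deeper libraries, with rilmenidine 1 and 2 below controls of like depth.

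The genes whose deviations followed each of the 8 most closely over the 10 kidneys are given as a description, since the best match of a gene among all tested had a median r of 0.95. Nisch was followed by Wdr7 (r = 0.93), Dennd5b and Epg5 (each 0.92), and Adra2b by Slc37a4 (0.95), Usp2 and Wasf2 (each 0.93). The closest to Ren1 were Bbox1 and Uba6 (each 0.96), which had means of only 6.4 and 18.4 counts a library. The closest to Agt were Tmem60 (0.96) and Brk1 (0.95). Ace was followed by Stt3b (0.95), Agtr1a by Tmem184a (0.95), and Atp6ap2 by Chchd4, Ddt and Pithd1 (each 0.97). Agtrap had the weakest closest matches, Tmem14a and Amd1 (each 0.88), below the median of all genes.

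The wider renin-angiotensin system gave 1 gene with an unadjusted p under 0.05 among 13 tested of 20 peptidases and receptors, and it was above 0, as were 4.43% of all genes tested at that threshold. Mme, the gene of neprilysin, a brush border peptidase that cleaves angiotensins and natriuretic peptides, had 19.1, 27.3 and 52.3 normalized CPM as the lowest, median and highest control and 24.9, 46.7, 86.1 and 51.5 in rilmenidine kidneys 1 to 4. The groups overlapped, with 1 treated kidney above every control. Mme had 0.87 as its log2 fold change (standard error 0.29, edgeR unadjusted p = 0.00882, adjusted p = 0.313). In the test of all genes that had any count, the log2 fold change was likewise 0.87, with an edgeR adjusted p of 0.00128. That test called 241 of 27565 genes, where the main test called 0 of 10055. Without rilmenidine 3 the log2 fold change was 0.51 (edgeR, unadjusted p = 0.0876), and without the 3 libraries under 10 CPM on receptor genes it was 0.18 (edgeR, unadjusted p = 0.57). With log2 library size in the fit it was 0.87 (edgeR, unadjusted p = 0.061), and with log2 Malat1 in the fit it was 1.15 (edgeR, unadjusted p = 0.0122). The straight tubule markers were also highest in rilmenidine 3, at 1223 normalized CPM, and their part in the level of Mme was not tested. Enpep, the aminopeptidase of angiotensin II, had -0.06 (standard error 0.14). Lnpep, the angiotensin IV-binding aminopeptidase, had the smallest p of the genes below 0, with -0.29 (standard error 0.45). The median of the 13 genes was 0.04, with 8 above 0 and 5 below.

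Among 14 genes of mineralocorticoid action and sodium retention, 12 were tested, and 4 had an unadjusted p under 0.05, all with values below 0, where 6.13% of all genes tested were lower at that threshold, while 0 passed the adjustment. The median of the 12 was -0.17, with 4 above 0 and 8 below. Slc12a3, the thiazide-sensitive sodium chloride cotransporter of the distal convoluted tubule, had 87.5, 112 and 149 normalized CPM as the lowest, median and highest control and 94.5, 98.3, 52.1 and 70.9 in rilmenidine kidneys 1 to 4. Rilmenidine 3 and 4 lay below every control and the other two among them. For Slc12a3 the log2 fold change was -0.55 (standard error 0.19, edgeR unadjusted p = 0.00922, adjusted p = 0.313). It was -0.28 with log2 Malat1 in the fit, -0.32 with log2 library size in the fit and -0.29 without the 3 libraries under 10 CPM on receptor genes, with edgeR unadjusted p-values of 0.207, 0.147 and 0.185. Among kinases that regulate this cotransporter, log2 fold changes were -0.36 for Wnk1 and -0.34 for Wnk4 (edgeR, unadjusted p = 0.0256 and 0.0418). Stk39, another such kinase of the list, had -0.15 (edgeR, unadjusted p = 0.243). Sgk1, an aldosterone-induced kinase, had -0.44 (edgeR, unadjusted p = 0.0436). These kinases were outside the rule for named genes and were chosen after their values were seen. The distal convoluted tubule markers, of which Slc12a3 is 1 of 2, summed to 649 to 1012 normalized CPM in controls and 467 to 853 in treated kidneys, and their part in these values was not tested. Scnn1g, a subunit of the epithelial sodium channel, had 0.11 (standard error 0.21).

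The vacuolar proton pump, to which the product of Atp6ap2 binds, had 13 of 14 genes tested, 11 above 0 and 2 below, with a median log2 fold change of 0.15, where 5056 of the 10055 genes tested were above 0. Of the 13 genes, 1 had an unadjusted p under 0.05, above 0, and 0 passed the adjustment, where 4.43% of all genes tested were higher at that threshold. Atp6v0e, a subunit of the membrane sector, had 107, 131 and 154 normalized CPM as the lowest, median and highest control and 168, 169, 156 and 148 with rilmenidine, with 3 treated kidneys above every control. Its log2 fold change was 0.30 (standard error 0.12, edgeR unadjusted p = 0.0271, adjusted p = 0.399), and 0.17 with log2 Malat1 in the fit (edgeR, unadjusted p = 0.251). Atp6v0b, of the same sector, had -0.16, and Atp6ap1, the other accessory subunit, had 0.05.

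Nischarin partners and I2 imidazoline sites gave 10 tested genes of 13, with 5 above 0 and 5 below and a median of -0.01. Ckb, the brain-type creatine kinase, which has been described as an I2 site, had 26, 27.4 and 40.1 normalized CPM as the lowest, median and highest control and 30.2, 31, 53.2 and 57.5 with rilmenidine. The 2 deepest libraries, rilmenidine 3 and 4, lay above every control. Ckb had 0.56 as its log2 fold change (standard error 0.21, edgeR unadjusted p = 0.0158, adjusted p = 0.343). It was 0.041 without the 3 libraries under 10 CPM on receptor genes (edgeR, unadjusted p = 0.872), 0.20 with log2 library size in the fit (edgeR, unadjusted p = 0.438) and 0.40 with log2 Malat1 in the fit (edgeR, unadjusted p = 0.146). It was 0.38 without rilmenidine 4 (edgeR, unadjusted p = 0.101). Itgb1, an integrin subunit, had -0.24 (standard error 0.12, edgeR unadjusted p = 0.0607), and Maoa, an enzyme that binds imidazolines, had 0.50 (standard error 0.33). Among 14 genes of kinins, endothelins and natriuretic peptides, 7 were tested and 0 had an unadjusted p under 0.05. At that threshold stood 10.6% of all genes tested. Kng2, a kininogen gene, had 0.15, and Npr1, the natriuretic peptide receptor, had -0.13. Over the 8 related lists together, 73 of 112 genes were tested, 3 had an unadjusted p under 0.05 above 0 and 5 below 0, and 0 passed the adjustment. These shares lay close to the 4.43% and 6.13% of all genes tested.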

How the data were processed

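Counts of reads per gene, not normalized, were deposited by the authors for 10 kidneys. Libraries were of the CEL-Seq2 type, which captures 3′ ends. Per the labels, processing used bcl2fastq (1.8.4), Trimmomatic (0.32), STAR (2.5.2b), featureCounts (1.5) and the mm10 build. Annotation release, strand setting and collapsing of molecular identifiers were not given in the sources used here. If duplicates were kept, counts exceed molecules, and intervals from counts cover counting error only. The design text calls the samples biological replicates.

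Genes that had 6 or more reads in 7 or more libraries were kept, scaled by RLE and tested with edgeR (4.0.16, R 4.3.3) by the quasi-likelihood test over all 10 kidneys without covariates. P-values were adjusted by Benjamini-Hochberg over all genes tested, with a threshold of 0.05. CPM are counts brought to the same library total, and logarithms used a prior count of 2. The code was tested on simulated data. Correlations used 100000 permutations within groups. Single genes were also compared by exact permutation tests, and these tests and the correlations within 7 libraries were chosen after seeing the data. Alternatives were TMM, other filters, DESeq2 (1.42.0), the likelihood ratio test, covariates, a replicate block and left-out libraries.

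The 8 genes and all lists were chosen with earlier results of these data known. Named genes were the 8, the tested gene with the smallest p in each direction of each related list, and the 3 genes closest to each of the 8. Further genes of the lists were named after their values were seen. Gene positions are from GENCODE M21 (GRCm38), and promoters from RefSeq (GRCm38.p6), with 7 of the 8 genes matched. Some items are not reported here.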

Additional observations from a re-analysis of the deposited data

How the results depend on the processing

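None of the 8 genes had an adjusted p under 0.05 in any alternative fit. Agtrap and Adra2b kept their direction in every alternative run, with log2 fold changes of 0.32 to 0.55 and -0.40 to -0.21 when each kidney was left out in turn, as did Ren1 (-0.46 to -0.11) and Agtr1a (-0.23 to -0.15), though Ren1 was -0.013 once log2 library size entered the fit. The number of the 8 genes with an unadjusted p under 0.05 was 0 to 2 when a kidney was left out, with 0 without rilmenidine 1 or rilmenidine 3 and 2 without control 4 or rilmenidine 4. Of all genes tested, 0 passed the adjustment in the edgeR quasi-likelihood test (1061 at an unadjusted p under 0.05), 60 with DESeq2 and 44 with the likelihood ratio test. With every gene of at least 1 count kept, 241 of 27565 passed and 2035 had an unadjusted p under 0.05. When a kidney was left out, 0 to 37 passed (37 without control 6, 33 without control 2, 6 without rilmenidine 1) and 743 to 1457 had an unadjusted p under 0.05. That number was 432 with log2 library size and 311 with log2 Malat1 as a covariate. Both covariates differed between the groups. Malat1 was high in controls 1, 3, 4 and 5 and in no treated kidney, and each treated library was deeper than every control but control 6. These fits therefore cannot tell the covariate and the drug apart.

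Several log2 fold changes turned sign, and the cause was not tested. With log2 library size as a covariate, Nisch was 0.0054, Ace -0.42, Lnpep 0.17 and Npr1 0.11. With log2 Malat1, Nisch was 0.07, Atp6ap2 -0.15, Lnpep 0.30, Prkaca -0.012, Npr1 0.19 and Scnn1g -0.051. Without the 3 libraries under 10 CPM on receptor genes, Agt was 0.72, Ace -0.43, Rbpj -0.0073 and Npr1 0.16. Rilmenidine 1 and 2 were the only treated kidneys in that fit. Agt was 0.0014 with DESeq2, 0.0011 with the likelihood ratio test and 0.18 in the permutation test. When a kidney was left out, Agt ran from -0.35 to 0.33, Ace from -0.11 (without rilmenidine 4) to 0.30, Atp6ap2 from -0.072 to 0.078, Adra1a from -0.31 (without rilmenidine 2) to 0.44 and Scnn1g from -0.024 (without rilmenidine 1) to 0.27. Agt was not kept by the filter of at least 10 counts in every library.

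The replicate numbers showed no sign of pairing the kidneys, though such correlations cannot exclude a pairing. The deviations of same-numbered kidneys had correlations of 0.08, 0.08, -0.08 and -0.01, and 2 of 8 libraries correlated best with their own number. The replicate block was fitted on the 8 kidneys whose number occurs in both groups, so controls without a treated partner, control 6 included, were left out. In that fit 0 of 9793 genes passed and 903 had an unadjusted p under 0.05. Agtrap was 0.57, and the sign turned for Agt (0.58), Adra1a (-0.0097) and Npr1 (0.054). Agt was also above 0, at 0.33, without control 6 alone, and the part of the block in its turn of sign was not tested. Depth limits Ren1 and Agt most, with 10 to 53 and 7 to 75 counts a library.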
